A study of Mus musculus with 17 samples.

Results

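The Notch receptors, ligands and targets described here are 10 genes of the 55335 counted in each library. The rule lists them by name and uses no measured value, but the set was proposed with earlier results of these data known: the 4 receptors Notch1, Notch2, Notch3 and Notch4, the 3 ligands Jag1, Jag2 and Dll4, and the 3 target genes Hes1, Hey1 and Heyl. The libraries are bulk RNA sequencing of 2 stromal populations sorted from the bone fraction of mouse legs. Skeletal stromal cells (SSCs) were Sca-1+ PDGFRα+ and osteoprogenitor cells (OPCs) were Sca-1- PDGFRα+/-, both within the CD51+ CD31- gate. Each of the 17 libraries came from a pool of 3000 cells of 3 mice. Mice were 8 to 12 weeks old, and the study's methods give females and littermates unless otherwise stated. The genotypes were Cxcr4+/+ (WT), Cxcr4+/1013 (+/1013) and Cxcr4 1013/1013 (1013/1013). The 1013 allele is a knock-in of a WHIM syndrome mutation that truncates the tail of the chemokine receptor CXCR4, and it is carried by every cell of the animal, so that an effect in a sorted cell may arise elsewhere in the body. SSC 1013/1013 had 2 libraries and each of the other 5 groups had 3.

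Notch receptors span the membrane and are engaged by ligands of the Jagged and Delta-like families on a neighbouring cell. Binding leads to cleavage of the receptor by an ADAM protease and then by γ-secretase, and the freed intracellular domain enters the nucleus, where it joins the DNA-binding protein RBPJ and a Mastermind coactivator to switch on genes of the HES and HEY families. In bone, Notch signalling is known for holding mesenchymal progenitors in an immature state and for restraining the maturation of osteoblasts, and Notch3 and Heyl are also well known in the mural cells that wrap vessels.

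All 10 genes are protein-coding in GENCODE M21 on the mm10 assembly. Among the receptors, Notch1 (ENSMUSG00000026923.15) lies at chr2:26457903-26516663 on the minus strand, Notch2 (ENSMUSG00000027878.11) at chr3:98013527-98150361 on the plus strand, Notch3 (ENSMUSG00000038146.8) at chr17:32120820-32166852 on the minus strand and Notch4 (ENSMUSG00000015468.14) at chr17:34564268-34588503 on the plus strand. The ligand genes are Jag1 (ENSMUSG00000027276.7) at chr2:137081456-137116644 and Jag2 (ENSMUSG00000002799.6) at chr12:112907819-112929776, both on the minus strand, and Dll4 (ENSMUSG00000027314.6) at chr2:119325784-119335962 on the plus strand. The target genes are Hes1 (ENSMUSG00000022528.8) at chr16:30064384-30067796 and Heyl (ENSMUSG00000032744.4) at chr4:123233556-123249875 on the plus strand, and Hey1 (ENSMUSG00000040289.8) at chr3:8663359-8667256 on the minus strand. Exons of other genes covered 9.76% of the exon bases of Notch1, 5.02% of those of Notch2, 6.03% of those of Notch3 and 5.56% of those of Dll4. The strand setting of the counting is not given in the sources used here, so reads from these shared stretches cannot be told apart. The exons of the other 6 genes overlapped no other annotated gene.

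The sequences just upstream of Notch3 and Jag1 are shown because these genes moved in opposite directions between the cell types. They are RefSeq sequences of GRCm38.p6, which has the coordinates of mm10, read 5′ to 3′ on the strand of the gene, and each ends before the gene's first annotated exon. Capitals mark CG pairs. The Notch3 stretch (250 bases, chr17:32166891-32167140, minus strand) holds 17 CG pairs and the Jag1 stretch (126 bases, chr2:137116645-137116770, minus strand) holds 14.
Notch3: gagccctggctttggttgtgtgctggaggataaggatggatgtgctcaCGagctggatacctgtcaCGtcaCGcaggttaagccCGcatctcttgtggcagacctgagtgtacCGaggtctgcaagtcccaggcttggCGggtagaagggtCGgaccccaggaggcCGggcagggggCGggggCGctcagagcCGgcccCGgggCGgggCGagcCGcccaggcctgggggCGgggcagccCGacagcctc
Jag1: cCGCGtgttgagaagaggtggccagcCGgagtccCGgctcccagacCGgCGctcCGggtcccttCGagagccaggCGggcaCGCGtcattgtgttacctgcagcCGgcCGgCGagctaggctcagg
RefSeq promoter windows matched 7 of the 10 genes, the others being Hes1, Hey1 and Heyl. The core letters of the site that RBPJ binds, TGGGAA, and the longer form GTGGGAA, which contains it, were searched on both strands of the 250 bases before each RefSeq start. The windows of Jag2 and Notch1 lie within the span of the gene in GENCODE M21, and that of Jag2 has 0 bases before the first annotated exon. Of the 7 windows, 0 held TGGGAA and 0 held GTGGGAA, while 21.6% and 5.42% of all 32851 windows held them. The median window had 6 CG pairs, the Jag2 window had 54 and the other 6 had 4 (Notch4) to 34 (Notch2).

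Levels are given as TMM-scaled CPM, that is counts per 1000000 gene counts of a library after scaling by trimmed means of M values over all 17 libraries. OPC libraries had 64099849 to 92683497 gene counts (median 73616313) and SSC libraries 44217695 to 50509592, and the 3 counts that a count of 0 still allows were worth 0.0324 to 0.0468 unscaled CPM in OPCs and 0.0594 to 0.0678 in SSCs. This floor reflects counting error alone, as reads from PCR copies of 1 molecule are not independent. SSC 1013/1013 replicate 1 had a count for 15748 genes, the other SSC libraries for 17808 to 22599 and OPC libraries for 18723 to 21027. That library had 0 counts of Notch4, Dll4 and Hey1. The part of its fewer detected genes in these zeros was not tested. The markers of the sort differed as the gates did: Ly6a, which encodes Sca-1, was at 0.569 to 12.4 CPM in OPCs and 386 to 1450 in SSCs, and Sp7, an osteoblast transcription factor, at 169 to 396 and 0.0367 to 34.1. Markers of other cell types were found, those of chondrocytes at high levels. Whether these transcripts came from other cells or from the sorted cells themselves was not tested. The 10 leukocyte markers took 0.647% of the counts of OPC WT replicate 3, 0.585% of OPC 1013/1013 replicate 2 and 0.390% of SSC WT replicate 3, and no more than 0.105% elsewhere. Chondrocyte markers, 6 genes, summed to 15849 to 100760 CPM in OPCs and 3368 to 21214 in SSCs. Col2a1, the cartilage collagen, had a log2 fold change of −7.96 in SSCs over OPCs (SE 0.96, edgeR adjusted p = 2.89e-05) and the proteoglycan gene Acan one of −5.38 (SE 0.63, adjusted p = 2.37e-05). The 7 skeletal muscle markers summed to 60.7 to 452 CPM in OPCs and 5.30 to 153 in SSCs, and Acta1 and Actn3 among them were called lower. The part of such cells in the Notch differences between OPCs and SSCs was not tested. In SSCs the 3 WT libraries had 3.68% to 4.15% of reads on no gene against 1.504% to 2.69% in the mutants. No batch is named in the labels, so that genotype and an unnamed batch cannot be told apart in SSCs. In bulk libraries, fewer cells that transcribe a gene and less RNA per cell also cannot be told apart.

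Between the cell types, 5 of the 10 genes differed over the mean of the 3 genotypes. Heyl, Notch3 and Notch1 were lower in SSCs than in OPCs, Hes1 and Jag1 were higher, and the level of Notch2 had the same median in both. All 10 genes passed edgeR's filter on low counts. Called here means a Benjamini-Hochberg adjusted p under 0.05 over all 20238 genes tested and a change of at least 1.5-fold in edgeR's quasi-likelihood test. Among all genes tested, 30.2% were called (15.3% higher and 14.9% lower in SSCs), so the 5 of 10 stand against a background in which many genes differed. The median log2 difference was −1.37 over the 10 genes and −0.04 over all genes. The former counts Dll4, whose fitted value gives no size, and without it the middle gene is Notch4 (−1.07). At an unadjusted p under 0.05, edgeR had 6 of the 10 genes, Hey1 being the further one, and DESeq2 called 7, adding Hey1 and Dll4, where it called 32.6% of all genes. The study calls the libraries of a group biological replicates, each from a pool of mice. The labels do not say whether these pools came from separate sorts. The p-values measure the spread between the pools, which may be technical in part.

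Notch3, a receptor prominent in mural cells, was at 166, 49.5 and 6.70 CPM in the 3 WT OPC libraries, at 160, 40.5 and 27.3 in +/1013 and at 64.3, 28.8 and 24.7 in 1013/1013. In SSCs it was at 9.03, 35.0 and 3.69 in WT, at 2.76, 0.441 and 4.75 in +/1013 and at 6.07 and 1.62 in 1013/1013. Only OPC WT replicate 3 and SSC WT replicate 2 brought the ranges of the cell types together, and the other OPC libraries were at 24.7 or more. The log2 fold change was −3.47 (SE 0.76, edgeR adjusted p = 0.00312).

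Heyl, a transcriptional repressor of the HEY family and a direct Notch target, was at 202, 111 and 26.5 CPM in WT OPCs, at 272, 127 and 67.5 in +/1013 and at 101, 74.8 and 51.5 in 1013/1013. SSC libraries had 9.60, 31.2 and 2.45 in WT, 17.2, 4.18 and 10.3 in +/1013 and 4.86 and 3.89 in 1013/1013. The same OPC and SSC libraries as for Notch3, OPC WT replicate 3 and SSC WT replicate 2, made the ranges touch. The log2 fold change of −3.65 (SE 0.58, edgeR adjusted p = 0.00031) was the largest in size among the 10 genes. In the median, Heyl stood at 100.6 CPM in OPCs and at 7.23 in SSCs.

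Notch1, a receptor used in many tissues, was at 37.6, 13.3 and 12.2 CPM in WT OPCs, at 45.4, 17.5 and 4.36 in +/1013 and at 20.0, 38.4 and 11.5 in 1013/1013. In SSCs its levels were 8.28, 10.5 and 15.7 in WT, 3.68, 2.66 and 5.64 in +/1013 and 10.5 and 3.22 in 1013/1013. The OPC and SSC ranges overlapped between 4.36 and 15.7 CPM. Its log2 fold change was −1.71 (SE 0.46, edgeR adjusted p = 0.0114).

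Hes1, a repressor of the HES family and the Notch target most often measured, was at 40.5, 36.3 and 28.9 CPM in WT OPCs, 41.6, 33.6 and 29.0 in +/1013 and 50.7, 29.0 and 29.7 in 1013/1013. SSC libraries had 70.3, 51.1 and 138 in WT, 77.3, 87.2 and 74.4 in +/1013 and 58.2 and 106 in 1013/1013. On the TMM scale the lowest SSC library (51.1) was above the highest OPC library (50.7), so that the cell types did not overlap. Such a separation was found for 9.86% of 22808 genes, those reaching 10 counts or more over the 17 libraries. With DESeq2's size factors the cell types overlapped for Hes1, at 2949 normalized counts in SSC WT replicate 2 against 2954 in OPC 1013/1013 replicate 1. In unscaled CPM they did not, at 70.2 against 48.3 in the same libraries. The log2 fold change was 1.22 (SE 0.21, edgeR adjusted p = 0.00053). The highest value, 138, came from SSC WT replicate 3, 1 of the 3 libraries with the most leukocyte transcripts. Without those 3 libraries the call stood.

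Jag1, the Jagged ligand of the 2 at the higher level, was at 17.5, 12.7 and 4.10 CPM in WT OPCs, 18.6, 10.8 and 4.14 in +/1013 and 3.70, 4.39 and 8.69 in 1013/1013. In SSCs it was at 23.9, 28.1 and 23.8 in WT, 15.97, 17.5 and 16.8 in +/1013 and 15.6 and 12.6 in 1013/1013. OPC and SSC libraries overlapped between 12.6 and 18.6 CPM. The log2 fold change was 1.02 (SE 0.32, edgeR adjusted p = 0.0245). This call was lost without SSC 1013/1013 replicate 1 (0.97, adjusted p = 0.0588) and without the 3 libraries with the most leukocyte transcripts (0.85, adjusted p = 0.0632).

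The other 5 genes were not called. Notch2, the receptor with the highest median level in SSCs, ranged from 14.1 to 71.8 CPM in OPCs and from 15.1 to 48.2 in SSCs, with a median of 31.9 in each. Its log2 fold change was −0.31 (SE 0.33, edgeR adjusted p = 0.521) with a 95% interval of −1.02 to 0.40. Hey1, the other HEY repressor, was at 12.9 to 38.3 CPM in OPCs and at 0 to 16.9 in SSCs. It missed the threshold (−1.67, SE 0.70, edgeR adjusted p = 0.0801) but passed it without SSC 1013/1013 replicate 1, which had 0 counts (−1.33, adjusted p = 0.0287), and without SSC 1013/1013 replicate 2 (−5.34, adjusted p = 8.58e-05), where the group is left with the library at 0.

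Jag2, the other Jagged ligand, was at 2.00 to 8.48 CPM in the OPC libraries. In SSCs it was at 0.0192 to 4.198 CPM except in WT replicate 3, which had 36.7 CPM. The log2 fold change was −0.76 (SE 0.88, edgeR adjusted p = 0.568), and −2.25 (adjusted p = 0.0361) without that library. The leukocyte markers summed to 2742 CPM in the same library and to 35.8 to 854 CPM in the other SSC libraries, and their part in its Jag2 level was not tested.

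Notch4 and Dll4, a receptor and a ligand best known from endothelial cells, were the lowest of their kinds. Notch4 was at 0.637 to 5.13 CPM in OPCs and 0 to 3.28 in SSCs (−1.07, SE 0.92, edgeR adjusted p = 0.411), and without SSC 1013/1013 replicate 2 the fitted value was −3.44 (adjusted p = 0.0471), against a group left with 1 library at 0 counts, so that it gives no size. Dll4 had 0 counts in 6 of 9 OPC and 5 of 8 SSC libraries, which allows up to 0.0678 unscaled CPM in each, and at most 4.56 CPM. With most libraries at 0, its fitted fold change gives no size and is not read as one here. The highest Notch4 and Dll4 levels, 5.13 and 4.56 CPM, both came from OPC +/1013 replicate 1. The 12 endothelial markers summed to 96.4 CPM there and to 4.36 to 33.2 CPM in the other OPC libraries, and SSC libraries ranged from 28.9 to 183 CPM. The part of such cells in these levels was not tested.

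**Figure D1:**
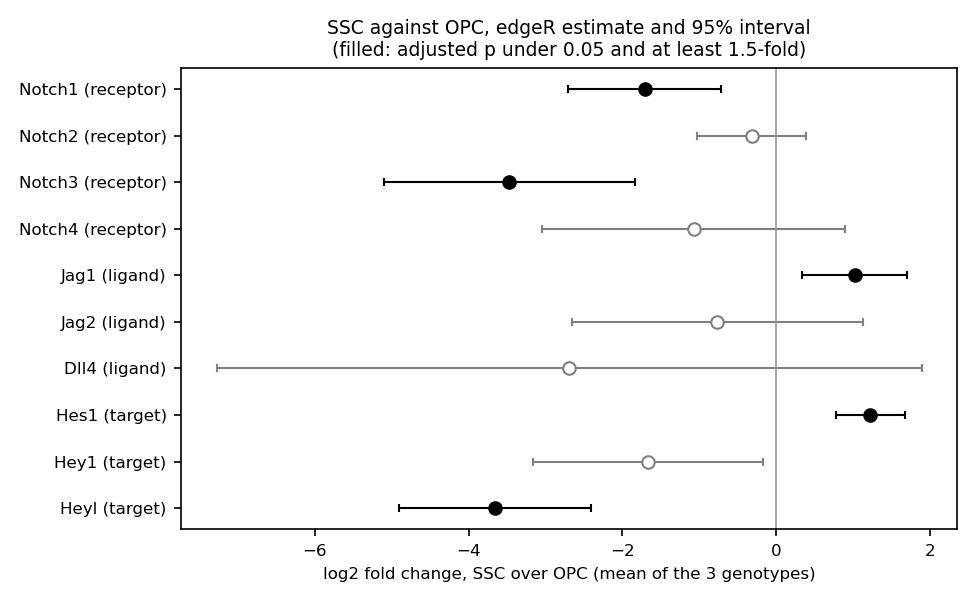
Log2 fold change of each Notch gene in SSCs over OPCs, with the mean of the 3 genotypes on each side. Points are edgeR estimates, lines 95% intervals and filled points the 5 genes called, of which Jag1 and Hes1 lie to the right of 0 and Notch1, Notch3 and Heyl to the left. Dll4 had 0 counts in most libraries, so that its position gives no size.

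The same comparison was made within each genotype. In WT, 2 of the 10 genes were called against a background of 11.4%: Hes1 (log2 fold change 1.30, SE 0.35, edgeR adjusted p = 0.0294) and Heyl (−2.97, SE 0.89, adjusted p = 0.0465). In +/1013, 3 were called against 12.5%: Notch3 (−4.84, SE 1.29, adjusted p = 0.0253), Hes1 (1.20, SE 0.35, adjusted p = 0.0391) and Heyl (−3.88, SE 0.93, adjusted p = 0.0145). In 1013/1013, only Heyl was called (−4.11, SE 1.12, edgeR adjusted p = 0.0286), against 13.1%. DESeq2 called 2, 4 and 4 in the 3 genotypes, where it called 21%, 23.9% and 28.3% of all genes. The median log2 difference over all genes was 0.17 in WT, 0 in +/1013 and −0.20 in 1013/1013.

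With 2 or 3 libraries on a side, these calls rest on single libraries, although each kept its direction in each fit run. In WT, Hes1 was not called without OPC replicate 2 (edgeR adjusted p = 0.0775), OPC replicate 3 (0.0982) or SSC replicate 3 (0.143), and Heyl was not called without OPC replicate 1 (0.1303) or 2 (0.0938) or SSC replicate 1 (0.148) or 3 (0.112). Without the 3 libraries with the most leukocyte transcripts, neither was called in WT, and the log2 fold change of Hes1 was 0.66. In +/1013, Notch3 was lost without OPC replicate 1 (0.0704) or SSC replicate 1 (0.0874) or 2 (0.0839), and Heyl without SSC replicate 2 (0.0616) or 3 (0.0525). Hes1 in +/1013 was lost without any 1 of the 6 libraries (edgeR adjusted p 0.0505 to 0.135). In 1013/1013, Heyl was lost without OPC replicate 1 (0.0565) or either SSC library (0.166 and 0.102).

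Counting libraries alone, the cell types did not overlap for Jag1 and Hes1 in WT (34.5% of all genes), for Hes1, Notch3, Hey1 and Heyl in +/1013 (31.7%), and for 8 of the 10 genes in 1013/1013 (36.4%). In 1013/1013, Jag1 and Hes1 were higher and Notch1, Notch3, Notch4, Jag2, Hey1 and Heyl lower in both SSC libraries than in all 3 OPC libraries. Of these SSC libraries, replicate 1 had the fewest genes with a count of all libraries (15748).

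To compare the genes with each other, levels were divided by the length of each gene's exons and are given as CPM per kb. In OPCs the order of the medians was Heyl (19.7), Hes1 (16.5), Hey1 (5.77), Notch3 (5.002), Notch2 (2.96), Jag1 (1.49), Notch1 (1.23), Jag2 (0.665), Notch4 (0.128) and Dll4 (0). Neighbours in this order overlapped in range, except Hes1 and Hey1. In SSCs the order was Hes1 (37.2), Notch2 (2.96), Jag1 (2.94), Hey1 (1.73), Heyl (1.41), Notch3 (0.521), Notch1 (0.489), Jag2 (0.0978), Notch4 (0.0529) and Dll4 (0). Hes1 stood clear of Notch2 there, with 25.1 CPM per kb in its lowest SSC library against 4.47 in the highest for Notch2, and the other neighbours overlapped.

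The makeup of the receptors differed between the cell types. Notch2 made up 21.4% to 47.9% of the summed receptor level per kb in OPC libraries (mean 32.2% ± 9.33, SD, n = 9) and 44.3% to 92.0% in SSC libraries (69.6% ± 17.6, SD, n = 8). Notch3 had 25.2% to 69.3% in OPCs (52.4% ± 15.6, SD, n = 9) and 1.67% to 44.05% in SSCs (16.3% ± 14.1, SD, n = 8). Notch3 was the largest share in 7 of the 9 OPC libraries, the exceptions being OPC WT replicate 3 and OPC 1013/1013 replicate 2, where Notch2 led. In SSCs, Notch2 led in all 8 libraries, narrowly in WT replicate 2 (44.3% against 44.05% for Notch3).

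The difference was tested by exchanging the cell types of libraries within each genotype, which gives 4000 arrangements. The mean share of Notch2 was 37.4 percentage points higher in SSCs (two-sided exact permutation p = 0.00025, the smallest these arrangements can give, adjusted over the 4 receptors p = 0.001). That of Notch3 was 36.1 points higher in OPCs (exact permutation p = 0.002, adjusted p = 0.004). Notch1 had a mean share of 13.3% in OPCs and 11.9% in SSCs (exact permutation p = 0.682), and Notch4 2.18% and 2.19% (exact permutation p = 0.994). The shares of a library sum to a whole, so that a higher share of one receptor goes with a lower share of another, and Notch2 was not called on the CPM scale.

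**Figure D2:**
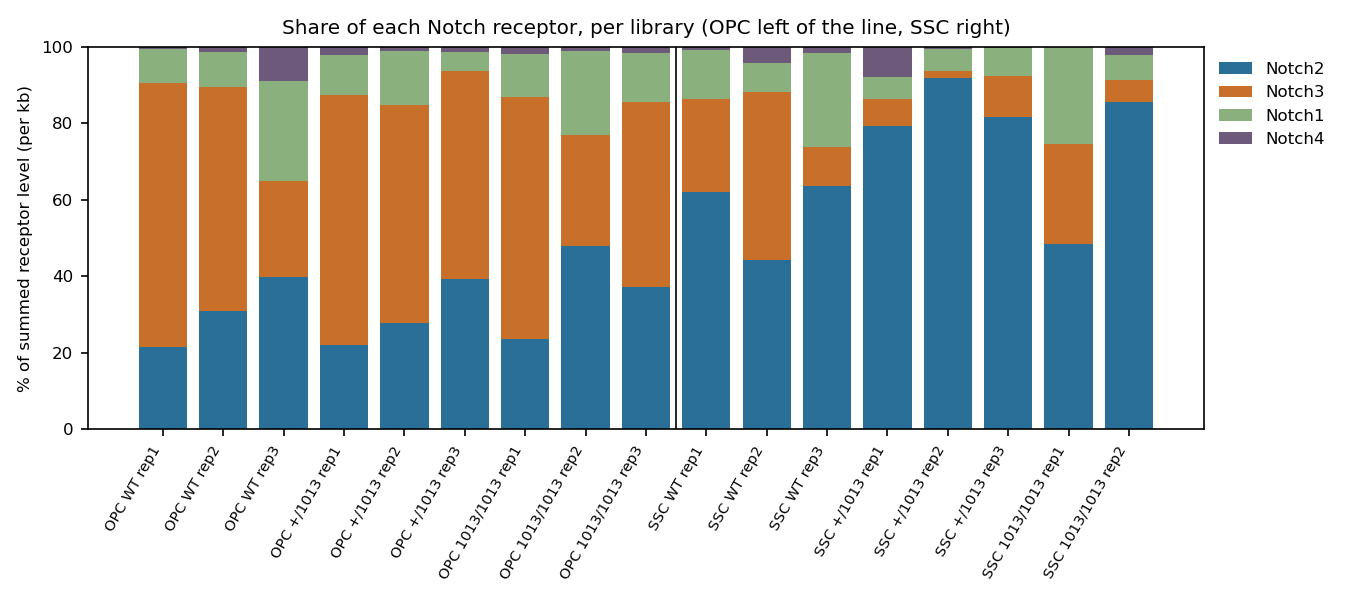
Share of each Notch receptor in the summed level of the 4, in percent of CPM per kb, for each library, with OPCs left of the line and SSCs right of it. Notch3 takes 25.2% to 69.3% of the bar in OPCs and Notch2 44.3% to 92.0% in SSCs.

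Among OPC libraries, Notch3 and Heyl varied together. The replicate 1 library was the highest of its genotype for both genes in all 3 genotypes, and OPC WT replicate 3 was the lowest of the 9 for both. The same held for Hes1. Across the 9 OPC libraries, Pearson's r of the log2 levels of Notch3 and Heyl (CPM plus 0.25) was 0.96 (exact permutation p = 0.000143, adjusted p = 0.00258) and Spearman's rho 0.92 (exact permutation p = 0.00131, adjusted p = 0.0236). After leaving out the 2 libraries farthest from the median Notch3 level, r was 0.93 over 7 libraries, and after subtracting the mean of each genotype it was 0.98. The adjustment covers 18 relations, those of Notch1, Notch2 and Notch3 with Hes1, Hey1 and Heyl in each cell type, and this set was chosen after the values had been seen. The permutations exchange the 9 libraries freely, so that p makes no allowance for likeness between libraries of the same replicate number.

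Of the other 17 relations, 1 passed by rank and not by Pearson's r, that of Notch3 and Hes1 in OPCs (rho 0.87, exact permutation p = 0.00451, adjusted p = 0.0406, r 0.74, exact permutation p = 0.0206, adjusted p = 0.123). In SSCs the same pair had the opposite sign (rho −0.81, exact permutation p = 0.0218, adjusted p = 0.098, r −0.62). Heyl in OPCs also had an r of 0.80 with Notch2 (exact permutation p = 0.0101, adjusted p = 0.0913) and of 0.61 with Notch1 (exact permutation p = 0.0784, adjusted p = 0.235). In the 8 SSC libraries r of Notch3 and Heyl was 0.65 (exact permutation p = 0.0766, adjusted p = 0.235), and 0.20 without the 2 farthest libraries. Whether any of these relations differs between the cell types was not tested.

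Mural cell markers did not all follow Notch3 and Heyl. The summed level of 12 such markers was 1199, 770 and 294 CPM in WT OPCs, 1450, 922 and 852 in +/1013 and 996, 815 and 754 in 1013/1013, so that the 3 highest sums were those of the replicate 1 libraries and the lowest that of OPC WT replicate 3. In SSCs the sums ran from 330 to 1164 CPM, the highest in WT replicate 2, which also had the highest Notch3 and Heyl of the SSCs. Each of the 12 markers reached 1 CPM in some OPC library, but several were low in OPCs. Kcnj8 was at 5.16, 1.95 and 0.712 CPM in WT OPCs and at 8.93, 3.20 and 3.02 in +/1013, highest in replicate 1 of each. In 1013/1013 OPCs it was at 2.87, 5.42 and 1.24 CPM. Rgs5, a pericyte marker, was at 2.41 to 8.85 CPM in 8 of the 9 OPC libraries and at 120 in OPC +/1013 replicate 1, against 19.2 to 141 in SSCs, and Higd1b and Myh11 had a median of 0 in OPCs, Higd1b being at 0 in all 3 OPC 1013/1013 libraries. Des and Acta2 were at 61.3 to 519 and 63.1 to 366 CPM in OPCs, and Des was highest in the replicate 1 library of each genotype. Acta2 was highest in replicate 1 in WT (288, 193 and 63.1 CPM) and +/1013 (366, 244 and 152), but not in 1013/1013 (166, 178 and 161). Mcam was highest in replicate 1 in WT (20.8, 15.7 and 11.9 CPM) and +/1013 (47.9, 31.1 and 9.43), but not in 1013/1013 (8.93, 21.7 and 7.31). Cspg4 was lowest in replicate 1 within +/1013 OPCs (176 against 379 and 434 CPM) and highest in it within 1013/1013 (575 against 351 and 409). In WT OPCs Cspg4 was at 309, 329 and 110 CPM, and Rgs5 at 4.24, 4.79 and 4.54. Between the cell types, Acta2, Cspg4, Mcam, Des and Tagln were called lower in SSCs, as Notch3 and Heyl were, while Rgs5, Kcnj8, Higd1b and Pdgfrb were called higher and Myh11, Abcc9 and Cnn1 were not called. The part of mural cells in the Notch3 and Heyl levels was not tested.

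**Figure D3:**
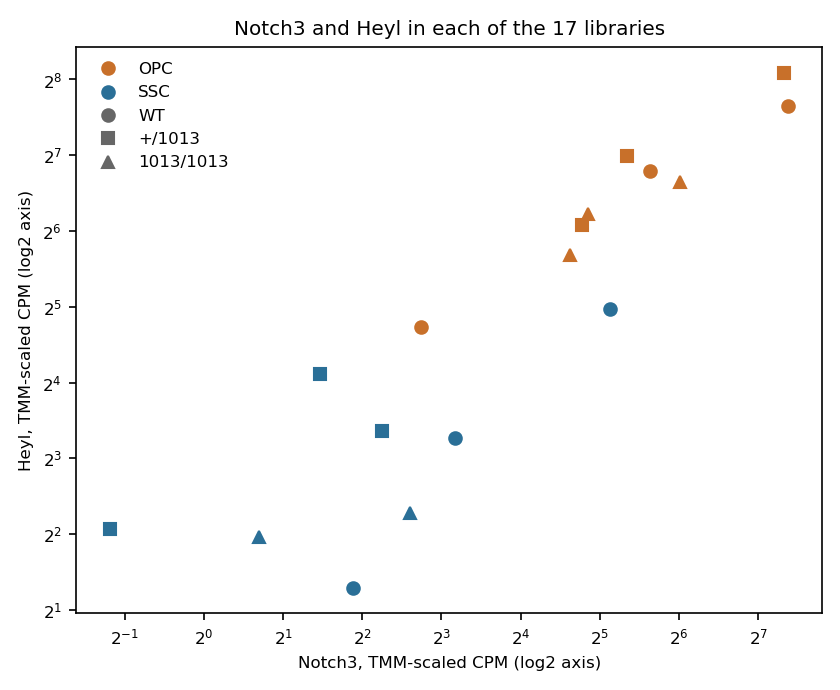
Notch3 against Heyl in each of the 17 libraries, as TMM-scaled CPM on log2 axes. Orange points are OPCs and blue points SSCs, and shapes mark the genotype. The OPC libraries rise together from 6.70 to 166 CPM of Notch3 and from 26.5 to 272 CPM of Heyl, and the SSC libraries lie lower and more scattered.

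The question of the study was what the 1013 allele changes in these cells, and the genotypes were compared within each cell type. In OPCs, 0 of the 10 Notch genes were called by edgeR in +/1013 against WT (background 0% of 16207 genes), in 1013/1013 against WT (0.00617%) or in 1013/1013 against +/1013 (0%). DESeq2 also called 0 in each, where it called 0.233%, 0.383% and 0.445% of all genes. At an unadjusted p under 0.05, the counts were 0, 0 and 1, the last being Hey1, at 12.9 to 18.8 CPM in 1013/1013 and 13.4 to 38.3 in +/1013. No Notch gene had OPC groups that did not overlap, where 4.37%, 6.21% and 5.91% of all genes did. The OPC libraries of a genotype spread widely, in WT from 6.70 to 166 CPM for Notch3 and from 26.5 to 202 for Heyl. A change within such a spread was not detectable here.

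In SSCs, Jag1 on the TMM scale did not overlap between any of the genotypes. Its 3 WT libraries (23.8 to 28.1 CPM) were above the 3 of +/1013 (15.97 to 17.5), which were above both of 1013/1013 (12.6 and 15.6). The mutants overlapped under other scalings. With DESeq2's size factors, 1013/1013 replicate 1 (931 normalized counts) was above +/1013 replicate 1 (917). In unscaled CPM it was above +/1013 replicates 1 and 2 (19.27 against 18.78 and 18.76). WT stayed above the mutants under both. The log2 fold change from WT was −0.62 in +/1013 (SE 0.21, edgeR adjusted p = 0.215) and −0.82 in 1013/1013 (SE 0.24, adjusted p = 0.167), and between the mutants −0.21 (SE 0.24, adjusted p = 0.901). Neither comparison with WT was called by edgeR, whereas DESeq2's Wald test called Jag1 in both (−0.68, adjusted p = 0.0145 and −0.88, adjusted p = 0.00287). Both comparisons use the same WT libraries. Marker sums set the same libraries apart: the 10 osteoblast lineage markers summed to 17975 to 23336 CPM in WT SSCs and 9323 to 14935 in the mutants, and 10 markers of Sca-1-positive fibroblasts, the sort markers Ly6a and Pdgfra among them, to 19443 to 33306 and 54852 to 79064. Their part in the Jag1 difference was not tested. Groups without overlap were common in these comparisons, with 25.9% of all genes in +/1013 against WT, 34.2% in 1013/1013 against WT and 13.1% between the mutants, and the median over all genes was itself −0.11 and −0.23 in the comparisons with WT.

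Besides Jag1, Notch1 was lower in each +/1013 SSC library (2.66 to 5.64 CPM) than in each WT library (8.28 to 15.7), with a log2 fold change of −1.55 (SE 0.58, edgeR adjusted p = 0.239). Both 1013/1013 SSC libraries were below the 3 of +/1013 for Notch2, at 15.1 and 31.5 CPM against 32.3 to 48.2 (−0.76, SE 0.36, edgeR adjusted p = 0.788). Hes1 and Heyl, the targets that set the cell types apart, overlapped between all SSC genotypes.

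Over the SSC comparisons, edgeR called 0 of the 10 Notch genes in +/1013 against WT (background 0.0736% of 17659 genes), 0 in 1013/1013 against WT (0%) and 0 between the mutants (0%). At an unadjusted p under 0.05 these numbers were 3 (Jag1, Notch1 and Notch3), 1 (Jag1) and 0, and DESeq2 called 1, 1 and 0, Jag1 in each case, where it called 8.15%, 11.4% and 1.31% of all genes. Leaving out SSC 1013/1013 replicate 2 makes edgeR call Hey1 in both comparisons of 1013/1013, as the group then consists of the library with 0 counts of Hey1.

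The difference of a genotype effect between SSCs and OPCs was tested as an interaction in the fit of all 17 libraries. EdgeR called 0 of the 10 genes for +/1013 (background 0.084%, smallest adjusted p = 0.603) and 0 for 1013/1013 (0.153%, smallest adjusted p = 0.55), with 0 and 0 at an unadjusted p under 0.05. DESeq2 called 0 and 1 (2.84% and 7.44% of all genes), the latter Dll4, which had 0 counts in both 1013/1013 SSC libraries. Leaving out SSC 1013/1013 replicate 2 made edgeR call Hey1 in the 1013/1013 interaction as well.

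Beyond the 10 genes, the rest of the pathway was read from 7 lists with 59 genes, of which 54 were tested between the cell types. Of these, 11 were higher and 10 lower in SSCs, with a median log2 difference of 0.08, beside the background of 15.3% and 14.9% over all genes. Between genotypes, edgeR called 0 of the 52 tested in each comparison within a cell type. At an unadjusted p under 0.05 there were 1, 1 and 1 in the OPC comparisons and 17, 13 and 2 in those of SSCs, and DESeq2 called 0, 0 and 0 in OPCs and 9, 9 and 1 in SSCs.

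Among 8 genes of the nuclear complex, 3 were higher and 1 lower in SSCs. Rbpj, which encodes the DNA-binding partner of cleaved Notch, was at 5.86 to 12.1 CPM in OPCs and 27.9 to 41.7 in SSCs (log2 fold change 2.09, SE 0.18, edgeR adjusted p = 1.72e-06). Maml2, a Mastermind coactivator, had medians of 3.29 and 8.38 CPM (1.53, SE 0.45, adjusted p = 0.0177), and Kat2b, a histone acetyltransferase, 10.4 and 19.6 (0.85, SE 0.20, adjusted p = 0.00549). The OPC and SSC libraries of Rbpj did not overlap, and Rbpj has annotated pseudogenes with which reads may have been shared.

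Of 10 genes that cleave the receptor, 3 were higher and 1 lower. Aph1a and Psenen, subunits of γ-secretase, rose from medians of 1.44 and 4.39 CPM in OPCs to 14.0 and 23.9 in SSCs (3.31, SE 0.26, edgeR adjusted p = 5.05e-07 and 2.35, SE 0.17, adjusted p = 2.16e-07). Exons of other genes covered 12.9% of the exon bases of Aph1a and 9.33% of those of Psenen. Furin, the protease that cuts the receptor precursor, fell from a median of 144.6 to 48.4 CPM (−1.59, SE 0.24, adjusted p = 0.000184).

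Of 9 corepressors, 3 were higher and 1 lower. Cir1, which bridges RBPJ to histone deacetylases, had medians of 1.71 CPM in OPCs and 9.55 in SSCs (2.30, SE 0.23, edgeR adjusted p = 5.25e-06), with 11.7% of its exon bases shared with other genes, and Hdac1, a histone deacetylase, had 23.1 and 68.5 (1.56, SE 0.11, adjusted p = 2.48e-07). Tle3, a Groucho-type corepressor, went the other way, from 27.2 to 5.18 CPM (−2.23, SE 0.26, adjusted p = 2.42e-05).

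Of 4 other ligands tested, 2 were lower and 0 higher: Dner, a non-canonical ligand, had medians of 4.93 CPM in OPCs and 0.959 in SSCs (−2.78, SE 0.80, edgeR adjusted p = 0.0158), and Dlk2, another one, was at a median of 4.35 CPM in OPCs and at 0 to 0.0633 in SSCs. Of 14 genes of turnover and endocytosis, 2 were higher and 4 lower. Neurl1a and Neurl1b, ubiquitin ligases of the Neuralized family, fell by 3.85 (SE 0.77, edgeR adjusted p = 0.00172) and by 3.35 (SE 1.00, adjusted p = 0.0207) on the log2 scale, and Dtx4, of the Deltex family, fell by 2.65 (SE 0.42, adjusted p = 0.0003), from a median of 114.9 CPM to 15.6. The ranges of Neurl1b, 0 to 4.09 CPM in OPCs and 0 to 3.65 in SSCs, overlapped almost in full, and 9.47% of the exon bases of Neurl1a were shared with another gene. Among 5 genes of receptor glycosylation, Poglut1, which adds O-linked glucose to the receptors, was the 1 called, with medians of 93.4 and 45.7 CPM (−1.01, SE 0.15, edgeR adjusted p = 0.000147).

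Of 8 further HES, HEY and feedback targets, 4 passed the filter and 0 were called by edgeR or by DESeq2, with 1 at an unadjusted edgeR p under 0.05. That gene was Hes6, also the one at the highest level, with medians of 28.4 CPM in OPCs and 17.4 in SSCs (−0.49, SE 0.19, edgeR adjusted p = 0.0693). Hes2, Hes3, Hes5 and Hes7 did not pass the filter on low counts.

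**Figure D4:**
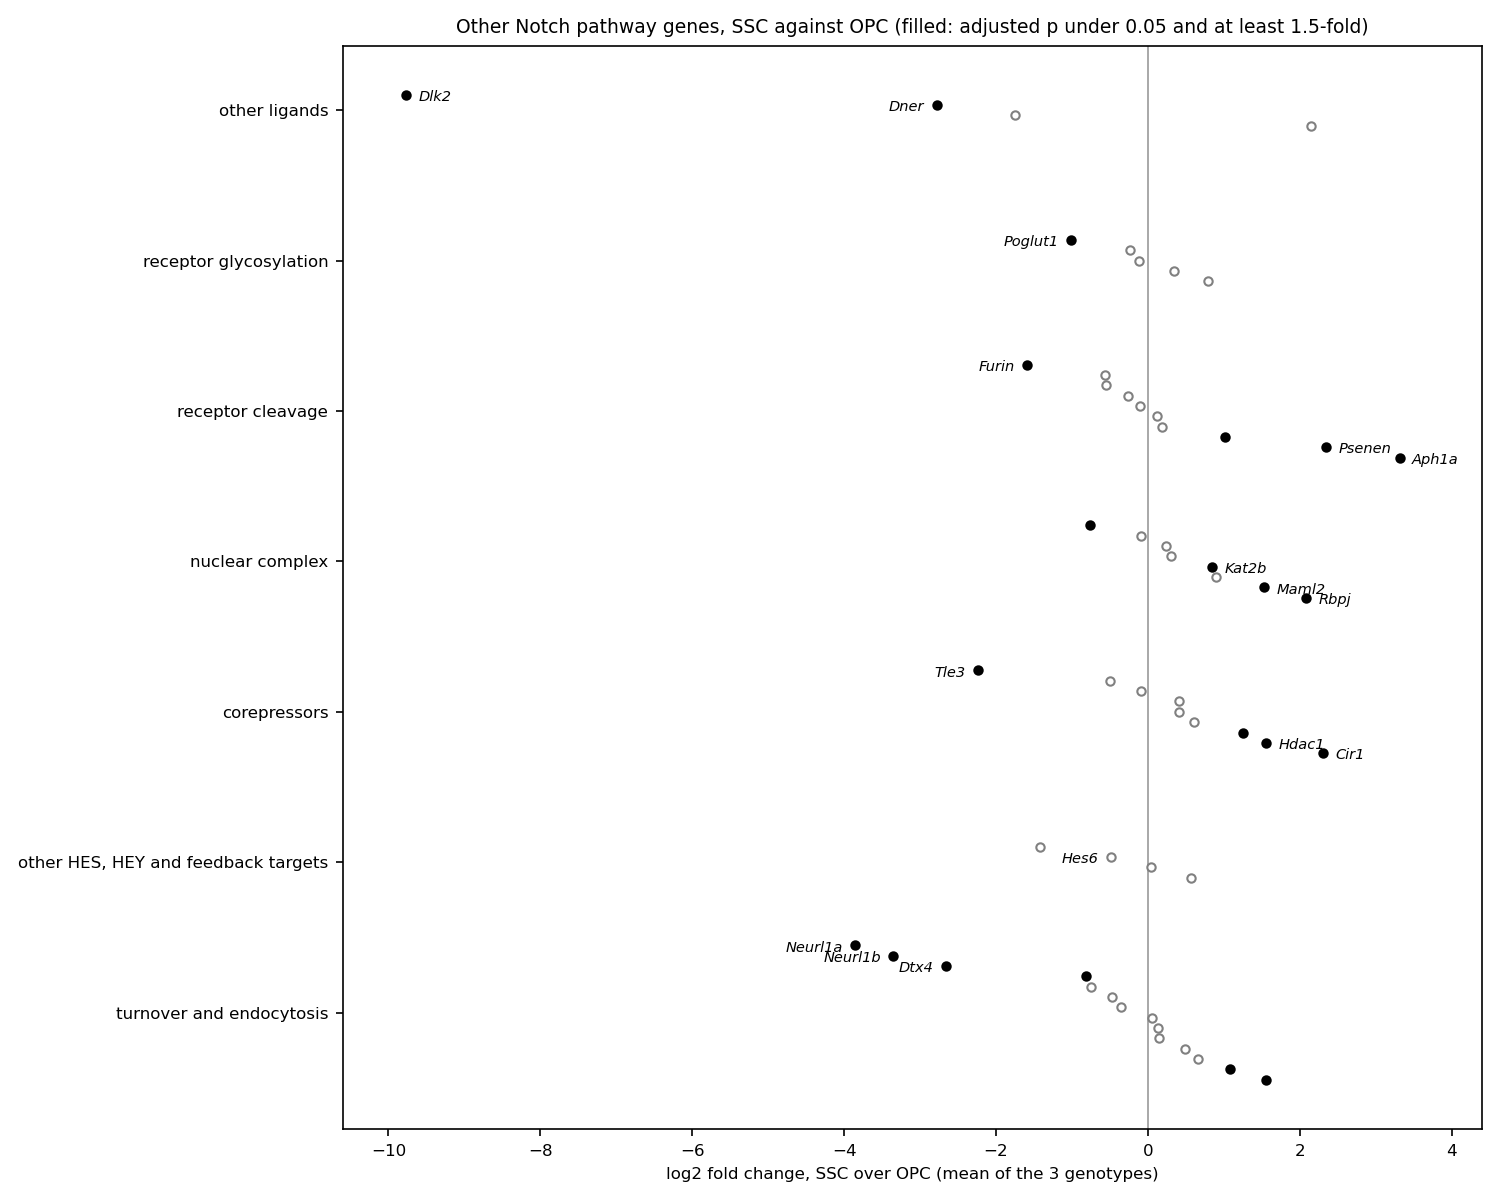
Log2 fold change in SSCs over OPCs for the 54 tested genes of 7 Notch pathway lists. Filled points are the 21 genes called, 11 of them right and 10 left of 0, and the genes with values in the text are named. The position of Dlk2 is a fitted value against SSC libraries at or near 0 counts and gives no size.

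The genes with the most similar pattern over the 6 group means were sought among 14492 genes with at least 1 CPM in some group. Likeness was the root mean square difference of log2 means, each centred on its own average, so that a small value means a like pattern. For Heyl the nearest were Chodl (0.16), Rbm24 (0.22) and Pcdhac2 (0.23), and for Notch3 Col22a1 (0.23), Hid1 (0.25) and Slit2 (0.25). Notch1 was nearest to Tpx2, Kif22 (0.12 each) and Marcksl1 (0.14), and Jag1 to Ltbp4 (0.09), Zfp760 (0.11) and Mdc1 (0.11). Hes1 lay nearest to Arl8a, 2010111I01Rik (0.07 each) and Pcnt (0.08), and Notch2 to Socs2, Ganc (0.05 each) and Rhbdd1 (0.06). Hey1 had Ajuba (0.12), Gnas (0.14) and Pcdhb11 (0.14) as neighbours, and Notch4 had Cenpp (0.12), Gdf9 (0.13) and Zfp426 (0.14). Jag2 and Dll4, with few counts, had more distant ones, from 0.25 for Rnf128 and 0.24 for Chrna7. With 6 means and 14492 genes, a close match can be had by many patterns, and the likeness is a description only.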

How the data were processed

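RNA of sorted OPCs and SSCs was amplified with the SMART-Seq v4 kit over 12 PCR cycles by the authors, tagged with Nextera XT, aligned to mm10 with STAR and counted with HTSeq. The deposited values are raw counts per gene, 1 file per library; the annotation release and HTSeq settings are not given in the sources used here. HTSeq's special counters stayed out of totals and tests. Of 55335 identifiers, 55154 matched GENCODE M21.

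Genotypes were compared within a cell type (16207 genes in OPCs, 17659 in SSCs), and cell types and interactions in a fit of all 17 libraries (20238 genes), with filterByExpr, TMM and glmQLFit (legacy = TRUE) in edgeR 4.0.16 under R 4.3.3. Standard errors are the absolute log2 fold change over the square root of F. Shares and relations of receptors and targets (log2 of CPM plus 0.25) were tested by exact permutation in SciPy 1.17.1, and the relations, like the fit without the 3 libraries richest in leukocyte transcripts, were chosen after the data were seen. Alternatives were DESeq2 1.42.0, other normalizations, filters, samples and a replicate block, and each library left out. Scripts were tested on simulated counts. The members, lists and rules were chosen with earlier results of these data known. By these rules, all 10 Notch genes, up to 3 called genes per pathway list and 3 pattern neighbours per gene were named.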

Additional observations from a re-analysis of the deposited data

How the results depend on the processing

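For the mean of the 3 genotypes, 4 to 7 Notch genes were called between cell types over the alternatives (5 to 7 with each library left out), and Notch1, Notch3, Hes1 and Heyl were called in all of them. The log2 fold changes of the text, with that of Dll4 21 in all, were recomputed in 449 fits: 408 kept direction and call, 31 lost and 9 gained a call, and 1 turned, the fitted value of Dll4, which ran from −5.18 to 0.49 with a library left out (0.49 without OPC +/1013 replicate 1) and gives no size. The gains between cell types included Hey1 with DESeq2 (−1.71, adjusted p = 0.0286) and with edgeR's newer quasi-likelihood method (−1.67, adjusted p = 0.0204). Counts of called Notch genes moved as follows. In WT, the 2 calls between cell types became 1 without a filter on low counts, 0 when only WT libraries were fitted, 0 without the 3 libraries with the most leukocyte transcripts, an alternative added after the data were seen, and 0 to 2 with a library left out. In +/1013, the 3 calls became 4 with DESeq2, DESeq2's size factors in edgeR, upper-quartile normalization, at least 10 counts in every library, the newer edgeR method and thinned libraries, each adding Notch1, and 4 when only +/1013 libraries were fitted, adding Hey1. Without a filter they became 2, Hes1 being lost, and 0 to 3 with a library left out. In 1013/1013, the 1 call became 4 with DESeq2 and 2 with upper-quartile normalization, with at least 10 counts in every library, and with the newer edgeR method, and 0 to 1 with a library left out. Between genotypes, DESeq2 called 1 (Jag1) in SSC +/1013 and 1 in SSC 1013/1013 against WT and 1 (Dll4) in the 1013/1013 interaction, and leaving out a library gave 0 to 1 in both SSC 1013/1013 comparisons and in that interaction. In the other genotype comparisons no Notch gene was called by any setting run.

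Over all genes, DESeq2 called more than edgeR: 66, 65 and 78 in the OPC comparisons against 0, 1 and 0, 1396, 1889 and 239 in those of SSCs against 13, 0 and 0, 502 and 1274 in the interactions against 17 and 31, and 4086, 4517 and 5015 between cell types within WT, +/1013 and 1013/1013 against 2308, 2521 and 2642. The cause was not tested. Other edgeR settings gave 0 to 145 genes in SSC +/1013 against WT (33 with upper-quartile normalization, 72 with at least 10 counts in every library, 145 with all 17 libraries in the fit), 54 and 212 under the last 2 of these in SSC 1013/1013 against WT, and 0 to 59 in the interactions (for 1013/1013, 5 without a filter, 59 with at least 10 counts in every library, 19 with the block and 0 without the leukocyte libraries, and for +/1013, 0 under 7 settings). Between cell types, 1013/1013 alone gave 511 genes and WT without the leukocyte libraries 1020, and in OPCs the fit of all 17 libraries gave 1, 2 and 1.

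Replicate numbers did not pair the samples throughout: the deviations of same-numbered libraries of a cell type correlated at −0.21 to 0.24, and those of libraries with different numbers at −0.28 to 0.33. The OPC replicate 1 libraries of the 3 genotypes did deviate alike (0.20, 0.24 and 0.10). Those of OPC replicates 2 and 3 correlated at −0.21 to 0.12. The labels do not say whether libraries of a replicate number share a sort. With the replicate number as a block, WT gave 1 call between cell types, since Hes1 was lost (adjusted p = 0.0533), and Hes1 was also lost in +/1013 (adjusted p = 0.0619). The block changed no other call of a Notch gene.

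Receptor shares moved little: the difference of Notch2 ranged from 34.2 to 41.0 points and that of Notch3 from −40.1 to −34.0 with a library left out. Differences near 0 changed sign, for Notch4 at −0.0536 points without length scaling and between −0.816 and 0.861 with a library left out, and for Notch1 between −3.28 and 0.251. Pearson's r of Notch3 and Heyl in OPCs was 0.93 to 0.98 in all 13 alternatives, which were added after the data were seen. Low levels limit Notch4, Dll4 and Jag2, and the wide spread of the OPC libraries for genes such as Notch3 and Heyl limits what the genotype comparisons could detect.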
